A study of Mus musculus with 54 samples.

Results

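Nuclear genes of oxidative phosphorylation were followed across lines of mouse embryonic stem cells that differ in their EZH2. They were taken from the gene annotation as the protein-coding nuclear genes with symbols starting with Nduf, Uqcr, Atp5, Cox4, Cox5, Cox6, Cox7 or Cox8, plus Sdha to Sdhd, Cyc1 and Cycs, without Ndufa4l2. This gave 95 genes of the 55401 in the count table. Of these, 7 encode core and 29 accessory subunits of complex I, 8 are complex I assembly factors, 4 belong to complex II and 9 to complex III. Cytochrome c is encoded by 1 gene (Cycs), complex IV by 19 genes and ATP synthase by 17, and Atp5s is an ATP synthase coupling factor. A second gene with the symbol Atp5o (ENSMUSG00000116933.1) had no count in any library, and Atp5o below means ENSMUSG00000022956.11.

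EZH2 is the catalytic subunit of Polycomb repressive complex 2, which methylates histone H3, and variants in it cause Weaver syndrome, an overgrowth condition. The lines included parental cells with their own Ezh2 alleles (parental), named flfl in the deposited counts, and their Ezh2 fl/∆ heterozygous derivative (het). The others were het cells that express added wild-type EZH2 (WT) or EZH2 A677T, R679C, K634E, K563E or A733T. All 5 variant lines and WT therefore share the heterozygous background, and the labels do not say how the added EZH2 is driven or whether a line is 1 clone. Of each line, 3 libraries came from undifferentiated cells (mESC) and 3 from cells differentiated without 2i and LIF in all-trans retinoic acid (ATRA), which makes 48 libraries. The labels give neither the dose nor the duration. A677T, R679C, K634E and K563E are averaged below as the Weaver variants. A733T was kept apart from general knowledge of the study, since no label names the growth restriction variant.

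Oxidative phosphorylation passes electrons from NADH through complex I, and from succinate through complex II, to complex III, cytochrome c and complex IV, which reduces oxygen. The proton gradient built on the way drives ATP synthase. Most subunits are nuclear and imported into mitochondria, while a small number are encoded in mitochondrial DNA, so both genomes must supply the complexes. NRF1, ETS factors such as GABPA, YY1 and ERR factors are known regulators of the nuclear subunits. Undifferentiated stem cells also use glycolysis, and several complex IV subunits have a common form and a second form restricted to testis, muscle or lung.

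Promoter windows from RefSeq (GRCm38.p6), from 250 bases before to 50 bases after a gene's start, were available for 75 of the genes. The letters CGCATGCGC, a core of NRF1 sites, stood on either strand in 11 of them (14.7%), against 1.95% of the 27025 genes with a window. CCGGAAG, a core of ETS sites, stood in 18 (24%) against 9.93%. AAGATGGC, a YY1 core, stood in 10 (13.3%) against 3.19%, and TCAAGGTCA, an ERR core, in 2 (2.67%) against 0.466%. The windows of these genes are richer in GC, with a median of 58% against 52.7% over all windows. A match is a string of letters, not a bound site, and the motifs were searched independently, so matches of different factors may overlap. The 250 bases before the start are shown for 3 genes that were lower after ATRA in all 8 lines, written 5′ to 3′ on the gene's strand with motif letters in capitals.
Cox6a1: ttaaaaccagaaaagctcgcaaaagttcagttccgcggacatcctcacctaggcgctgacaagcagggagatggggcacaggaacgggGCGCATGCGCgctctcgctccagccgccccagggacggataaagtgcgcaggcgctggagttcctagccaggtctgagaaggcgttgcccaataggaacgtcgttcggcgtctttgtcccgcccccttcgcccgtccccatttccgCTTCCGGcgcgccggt
Sdhd: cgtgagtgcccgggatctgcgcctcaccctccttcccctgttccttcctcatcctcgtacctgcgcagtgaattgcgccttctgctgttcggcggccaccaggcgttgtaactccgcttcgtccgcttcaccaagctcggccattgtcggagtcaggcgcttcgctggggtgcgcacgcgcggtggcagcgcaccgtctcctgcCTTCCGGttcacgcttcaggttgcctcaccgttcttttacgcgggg
Cox6b2: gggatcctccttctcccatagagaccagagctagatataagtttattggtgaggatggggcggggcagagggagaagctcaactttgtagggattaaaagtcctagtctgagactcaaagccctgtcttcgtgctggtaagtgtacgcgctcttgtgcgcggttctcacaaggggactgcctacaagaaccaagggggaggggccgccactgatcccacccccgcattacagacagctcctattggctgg
The Cox6a1 window (chr5:115348959-115349208, minus strand) holds the NRF1 core on both strands, overlapping, and, nearer the start, the ETS core in reverse complement. Its last bases, which include the ETS core, lie inside the GENCODE gene, which ends at 115348981. The Sdhd window (chr9:50603850-50604099, minus strand) holds the ETS core in reverse complement, and an ERR core lies further on, outside the bases shown. The Cox6b2 window (chr7:4753095-4753344, minus strand) directly borders the gene and holds none of the 4 strings. Cox6a1 encodes the common form of a complex IV subunit, Cox6b2 the testis form of a different one, and Sdhd a membrane anchor of complex II.

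Libraries held 15361598 to 31338825 counts, and the 95 genes took 0.768% to 1.18% of them. The cells carried the markers of their state. The summed level of 8 naive pluripotency genes was 4950 to 7010 CPM (counts scaled for library size with TMM) in mESC and 1380 to 2490 in ATRA, and that of 6 retinoic acid response genes was 3 to 10.2 in mESC and 587 to 970 in ATRA. Markers of fibroblasts summed to at most 5.13 CPM in mESC and 12.9 in ATRA, with Col3a1, Postn and Lum under 1 CPM in every library. Endoderm markers summed to at most 6.81 CPM in mESC libraries and to 58.3 to 139 in ATRA libraries, and neural progenitor markers to at most 26.5 and to 80.5 to 183. Trophoblast markers summed to 48.3 to 89.9 and to 43.1 to 107, with Elf5 under 1 CPM in every library. Their part in the results was not tested. In bulk RNA, fewer cells of a type and less RNA per cell cannot be told apart. Ezh2 itself averaged 280.5 ± 4.11 CPM (SD, n = 3) in het and 439 ± 22.8 in WT mESC, and 239 ± 4.85 and 362 ± 5.01 in ATRA. Against WT, Ezh2 was higher in the mean of the Weaver variants (edgeR, log2 0.29, adjusted p = 0.000112 in mESC and 0.18, adjusted p = 0.00422 in ATRA). In A733T it was lower (-0.26, adjusted p = 0.00676 in mESC and -0.40, adjusted p = 1.47e-05 in ATRA). The part of Ezh2 level in the differences of the variants from WT was not tested. The labels do not say whether the 3 libraries of a group came from separate cultures, so p-values measure the spread between these libraries, which may be technical. Each library's deviation from the mean of its state correlated across genes with exon GC content at a Spearman rho of -0.76 to 0.73, and with exon length at -0.29 to 0.29.

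Per kilobase of exon, the most abundant of the genes in mESC was Atp5b, the catalytic beta subunit of ATP synthase, at 430 RPKM (reads per kilobase of exon, scaled for library size, mean of 24 libraries). Atp5a1, the alpha subunit, followed at 403, then Cox4i1 (284), Cox6a1 (262) and Cox8a (234), all complex IV subunits. After ATRA the leading genes were Atp5b (378), Atp5a1 (310), Cox4i1 (217), Cox8a (179) and Cox6a1 (171). At the low end of both states stood tissue-restricted forms of complex IV subunits. Cox6a2, the muscle form, had no count in mESC and at most 0.252 CPM in ATRA, and Cox8b had at most 0.109 CPM in either state. Cox7b2 and Cox8c stayed at or below 0.643 and 0.584 CPM. Cox6b2 was the one tissue-restricted form with a sizeable level, at 12.04 to 40.6 CPM in mESC. A filter on low counts left 90 of the 95 genes to test in mESC and 92 in ATRA and in the joint fit of both states. Cox6a2, Cox8b and the empty Atp5o gene passed none of the filters, and Cox7b2 and Cox8c did not pass in mESC.

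The summed level of the 95 genes was lower after ATRA in every line. In WT the libraries had 12250, 11250 and 12000 CPM in mESC and 8522, 9189 and 8883 in ATRA. In parental cells they had 12330, 10680 and 11290 against 9939, 8578 and 8658. The 2 states did not overlap in any of the 8 lines, and the mean sum was lower by 25.1% in WT, 22.1% in K634E, 21.8% in K563E, 20.8% in parental, 19.6% in het, 17.4% in A733T, 17.1% in A677T and 14.1% in R679C. Between lines of one state the sums lay closer together. The mESC means ran from 10380 ± 633 CPM in A677T to 11830 ± 520 in WT, and the ATRA means from 8166 ± 547 in K634E to 9350 ± 401 in R679C (SD, n = 3). Within groups the sum moved with the GC and length correlations of the libraries. In 11 of the 16 groups the library with the lowest GC correlation had the lowest sum, and in 14 the library with the highest length correlation did. Their part in the differences between sums was not tested.

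**Figure D1:**
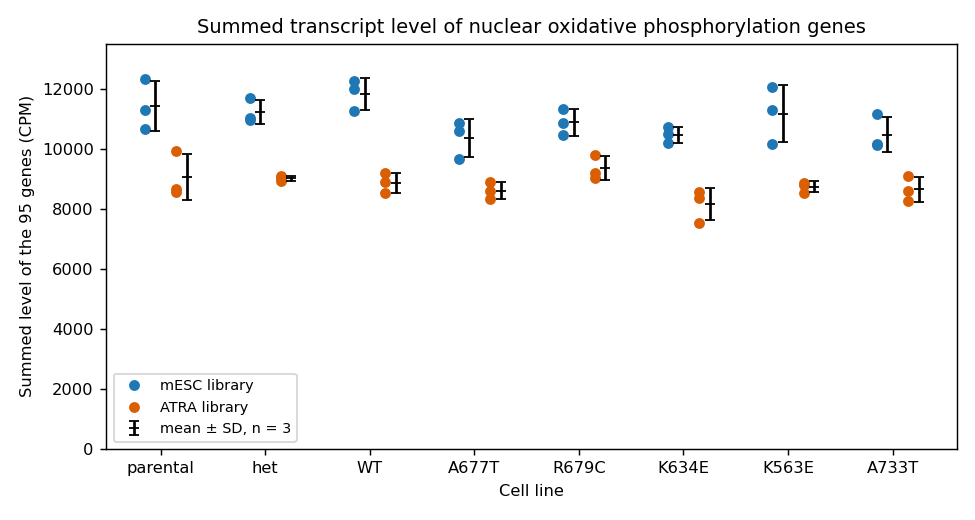
Summed level of the 95 nuclear oxidative phosphorylation genes (y axis, CPM, from 0) in each library, by line (x axis) and state (blue mESC, orange ATRA); black marks are the mean ± SD of 3 libraries. All ATRA libraries of a line lie below all mESC libraries of that line, while the lines overlap within a state.

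**Figure D2:**
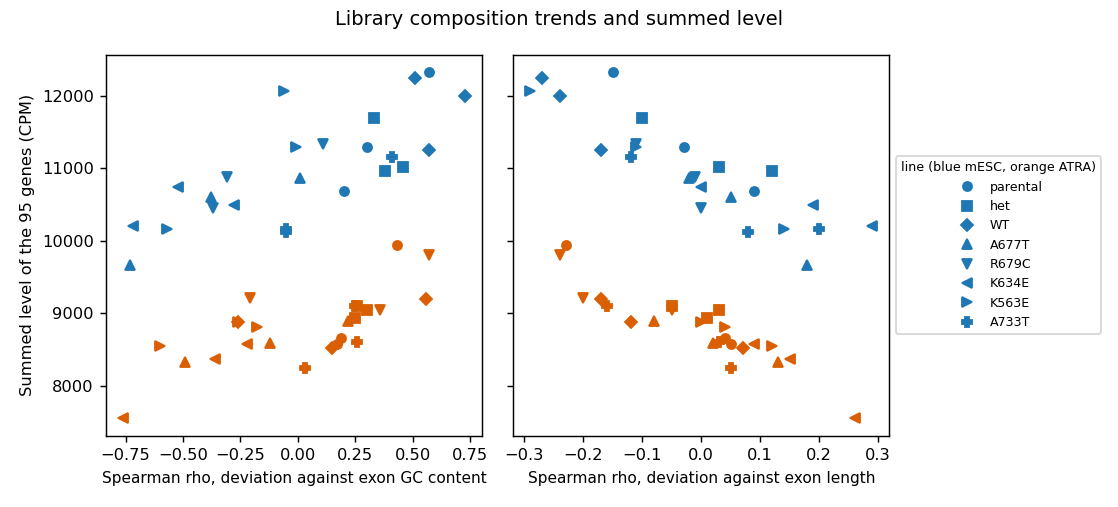
Summed level of the 95 genes (y axis, CPM, not from 0) against the Spearman correlation of each library's deviation with exon GC content (left) and exon length (right); symbols are lines, colours are states. The plot shows low sums at low GC correlation and at high length correlation within each state and lower sums in ATRA than in mESC.

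Most of the genes tested were lower after ATRA in WT, as were 48 to 65 of them in the other lines. In WT, 72 of the 92 genes tested fell and 2 rose, while 29.2% of all 17683 genes tested fell and 29.8% rose (edgeR, adjusted p under 0.05). The median log2 fold change of the set was -0.50, against 0.02 over all genes. In the other lines 56 fell and 2 rose in het (all genes 27.4% and 29.4%), 54 and 3 in parental (26.5% and 28.6%), 55 and 1 in A677T (26.2% and 29.1%), 48 and 4 in R679C (27.3% and 30.2%), 65 and 1 in K634E (27.3% and 30%), 64 and 1 in K563E (27.4% and 30.4%), and 54 and 2 in A733T (26.8% and 28.9%). The 2 rises in WT were Cox8c and Cox7b2, and Cox8c was among the rises in 7 lines, all but K563E. Both genes entered the fit through the ATRA libraries, so these rises are no result. The set medians ran from -0.24 in R679C to -0.50 in WT. In all 8 lines 38 of the genes fell, as did 15.2% of all genes tested, and 14 fell in none. For 32 of the 92 (34.8%) every ATRA library lay below every mESC library in all 8 lines, as for 14.3% of all genes.

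The falls were compared with GC content and length. The log2 change in WT correlated with exon GC across the set at a Spearman rho of -0.28 and with exon length at 0.26 (88 genes above 4 CPM, which share libraries). The set's median exon length is 1587 bases, against 3749 over all genes tested, and its median exon GC is 50.1%, against 49.6%. With each library's GC trend removed, 72 genes fell and 2 rose in WT (all genes 32.4% and 30.6%). With GC and length trends removed together, 69 fell and 2 rose (32.1% and 31%), 66 of the 72 falls kept their call, and the median was -0.40. In R679C, the line with the smallest change, 41 fell and 6 rose under that correction (29.2% and 32.1%), 38 of the falls among the first 48.

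By complex, the 4 genes of complex II were the most uniform. They encode succinate dehydrogenase, which also serves the tricarboxylic acid cycle. Sdhb, the iron-sulphur subunit, had 85.1, 87.7 and 95.2 CPM in WT mESC and 49.8, 58.7 and 56.0 in WT ATRA, which is a log2 change of -0.70 (SE 0.085, adjusted p = 1.07e-09). The groups were far apart. Sdhd had 139, 137 and 141 CPM against 87.4, 91.7 and 91.9 (-0.62, SE 0.099, adjusted p = 7.53e-07), and Sdhc, the other membrane anchor, changed by -0.50 and the flavoprotein Sdha by -0.44. All 4 fell in all 8 lines.

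Complex IV held the largest fall of the set in WT. Its median change in WT was -0.58 over 17 genes tested, of which 13 fell and 2, Cox8c and Cox7b2, were called higher. Cox6b2 had the largest fall, from 32.6, 29.7 and 40.6 CPM to 10.9, 11.99 and 10.03 in WT (-1.64, SE 0.118, adjusted p = 1.54e-16). Its change ranged over the lines from -1.64 in WT to -0.48 in A733T. Cox5a, which binds the heme-carrying core of the complex from the matrix side, fell from 128, 124 and 124 CPM to 66.2, 75.0 and 68.2 (-0.84, SE 0.107, adjusted p = 6.55e-09), and from -0.60 to -0.84 over the 8 lines. Cox6a1 went from 227, 196 and 217 CPM to 107, 121 and 105 (-0.94, adjusted p = 9.75e-08). In each of the 3, the lowest mESC library stood above the highest ATRA library. Cox6b1, Cox6c, Cox7a2, Cox7a2l, Cox7b, Cox4i1 and Ndufa4 also fell in all 8 lines. Cox7c did not pass in any line, with changes from -0.15 to 0.20. Cox8c and Cox7b2 did not pass the filter in mESC and entered the joint fit through the ATRA libraries, so their direction is partly fixed by the filter and their calls are no result. Cox8c was at most 0.271 CPM in mESC and 0.584 in ATRA, and Cox7b2 at most 0.579 and 0.643.

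In ATP synthase, 14 of 16 genes tested fell in WT, and none rose. Atp5a1 had 1365, 1287 and 1378 CPM in WT mESC and 999.5, 1058 and 979.6 in WT ATRA (-0.41, SE 0.062, adjusted p = 2.34e-07). Atp5b had 2017, 1857 and 2025 against 1600, 1694 and 1556 (-0.28, SE 0.062, adjusted p = 0.000115), and it passed in 7 of 8 lines. Of the 3 genes for the membrane ring subunit c, which yield the same mature protein, Atp5g3 fell in all 8 lines (-0.37 to -0.58) and Atp5g1 in 6 (-0.25 to -0.63), while Atp5g2 passed in 1 (-0.09 to -0.25).

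In complex I, 25 of 29 accessory, 5 of 7 core and 5 of 8 assembly genes fell in WT. Ndufb4, an accessory membrane-arm subunit, had 32.6, 24.3 and 28.2 CPM in WT mESC and 12.7, 14.4 and 16.8 in WT ATRA (-0.95, SE 0.153, adjusted p = 9.63e-07). Ndufaf5, an assembly factor that hydroxylates a core subunit, had 17.6, 13.3 and 14.2 against 7.42, 8.59 and 8.10 (-0.90, SE 0.107, adjusted p = 7.39e-10). Both fell in all 8 lines without overlap of the libraries. Ndufb6, another accessory subunit, changed by -0.87 in WT (adjusted p = 1.19e-05), passed in 7 lines and ranged from -0.87 to -0.34. Among core genes, Ndufv1, which carries the NADH-binding site, fell in 7 lines. Ndufs1, the largest core subunit, passed in none (-0.12 to 0.01), although with the GC correction it was lower in 4 lines. Ndufs8, an iron-sulphur subunit, rose in 4 lines and had a positive change in all 8 (0.01 to 0.29). In WT it had 43.5, 43.6 and 44.2 CPM in mESC and 44.5, 49.6 and 48.3 in ATRA (0.12, adjusted p = 0.198; 0.30 with the GC correction, adjusted p = 0.000158). The assembly factor Ndufaf8 rose in 1 line, with changes from -0.02 to 0.51.

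In complex III, 6 of 9 genes fell in WT, with a median of -0.31, and the core proteins Uqcrc1 (-0.49, adjusted p = 3.02e-07) and Uqcrc2 (-0.31) fell in all 8 lines, as did Uqcr10 and Uqcrh. Uqcr11, a small subunit, had the largest change of the complex in WT (-0.91, adjusted p = 0.000885), passed in 1 of the lines and ranged from -0.91 to 0.05. Cyc1, the cytochrome c1 subunit, passed in none (-0.20 to 0.18). Cycs had 149.7, 118.9 and 129.8 CPM in WT mESC and 121, 107 and 134 in WT ATRA, so the groups overlapped (-0.14, adjusted p = 0.333), and it passed in no line (-0.14 to 0.12).

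**Figure D3:**
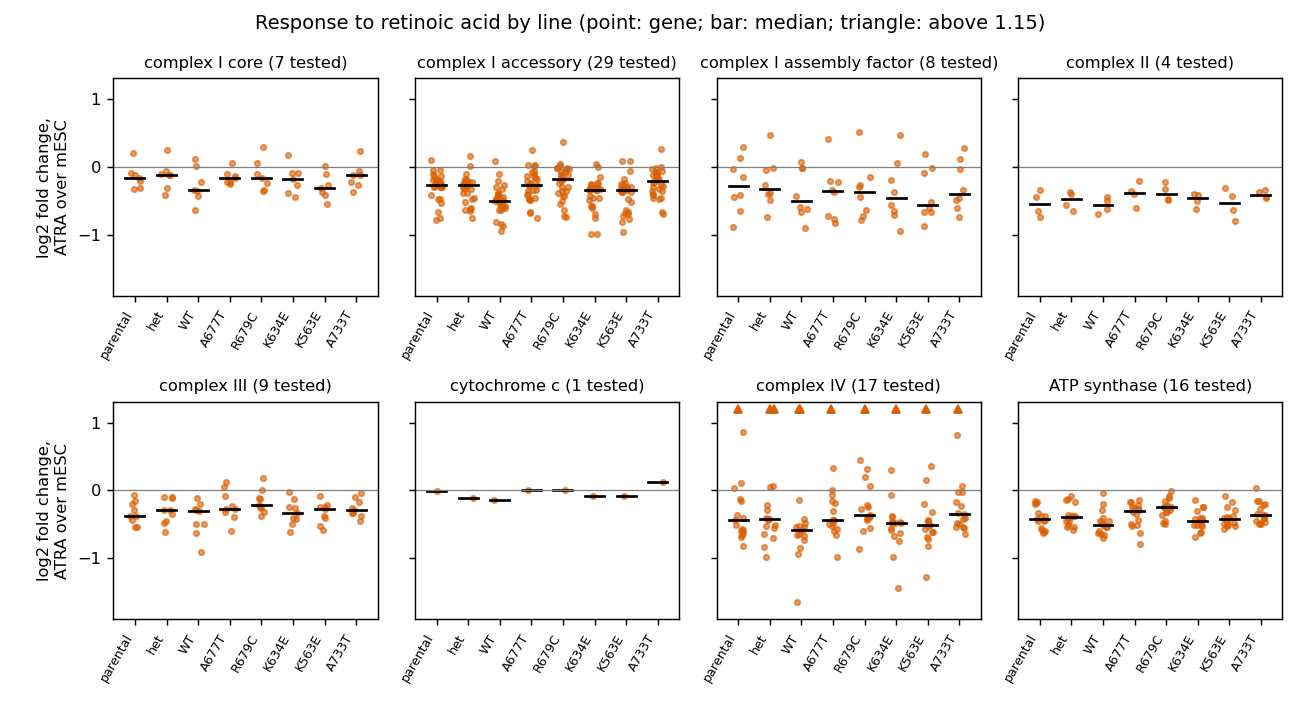
Log2 fold change of ATRA over mESC (y axis) in each of 8 lines (x axis), 1 panel per complex. Points are genes and black bars medians. Triangles stand at a fixed height near the top of the axis for the highest values, which are of Cox8c and Cox7b2. The medians of all panels but cytochrome c lie below 0 in every line, and the single cytochrome c gene lies near 0.

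Lists of other genes were counted in the same comparison, against the 29.2% of all genes that fell and 29.8% that rose. Of 20 glycolysis genes tested 18 fell and 1 rose, with a median of -0.59. Of 77 mitochondrial ribosome genes 42 fell and 2 rose (median -0.28), and of 100 cytosolic ribosome genes 61 fell and 4 rose (-0.26). Of 30 further assembly factors of the complexes 18 fell and 2 rose (-0.31). Of 14 tricarboxylic acid cycle genes 6 fell and 3 rose (-0.13), and of 11 regulators of mitochondrial gene expression 4 fell and 2 rose (-0.19), shares of falls nearer to that of all genes. Of 12 mitochondrially encoded subunits 1 fell and none rose in WT, with a median of 0.04, or -0.18 with the GC correction. In the other lines their median ran from -0.14 in K563E to -0.46 in R679C. There 1 fell in K634E, K563E and A733T, 2 in parental and het and 5 in A677T and R679C, and none rose in any line. With the GC correction 7 fell in parental and 6 in het.

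In undifferentiated cells, the variants were compared with WT, whose 3 libraries all variant comparisons of a state share. Against WT, 25 of the 90 genes tested fell and 6 rose in the mean of the 4 variants, with a median of -0.12. Over all 15830 genes, 22.9% fell and 21.4% rose. The count rests partly on WT replicate 3, without which 16 fell and 3 rose. Fold changes in this comparison followed GC content closely, at a rho of -0.66 over 10361 genes above 4 CPM and -0.61 over 87 of the set. The set was split by GC content into groups of 31, 29 and 30 genes. In the group of lowest GC the median was 0.01, with 3 genes lower and 3 higher. In the middle group it was -0.10, and in the group of highest GC -0.24, with 16 lower and none higher. With the GC trend of each library removed, 19 fell and 10 rose, against 19.1% and 17.5% of all genes, and 14 of the 25 falls and 4 of the 6 rises kept their call. The median stayed at -0.11, but the order of these groups turned, to -0.17 in the lowest, -0.11 in the middle and -0.06 in the highest.

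**Figure D4:**
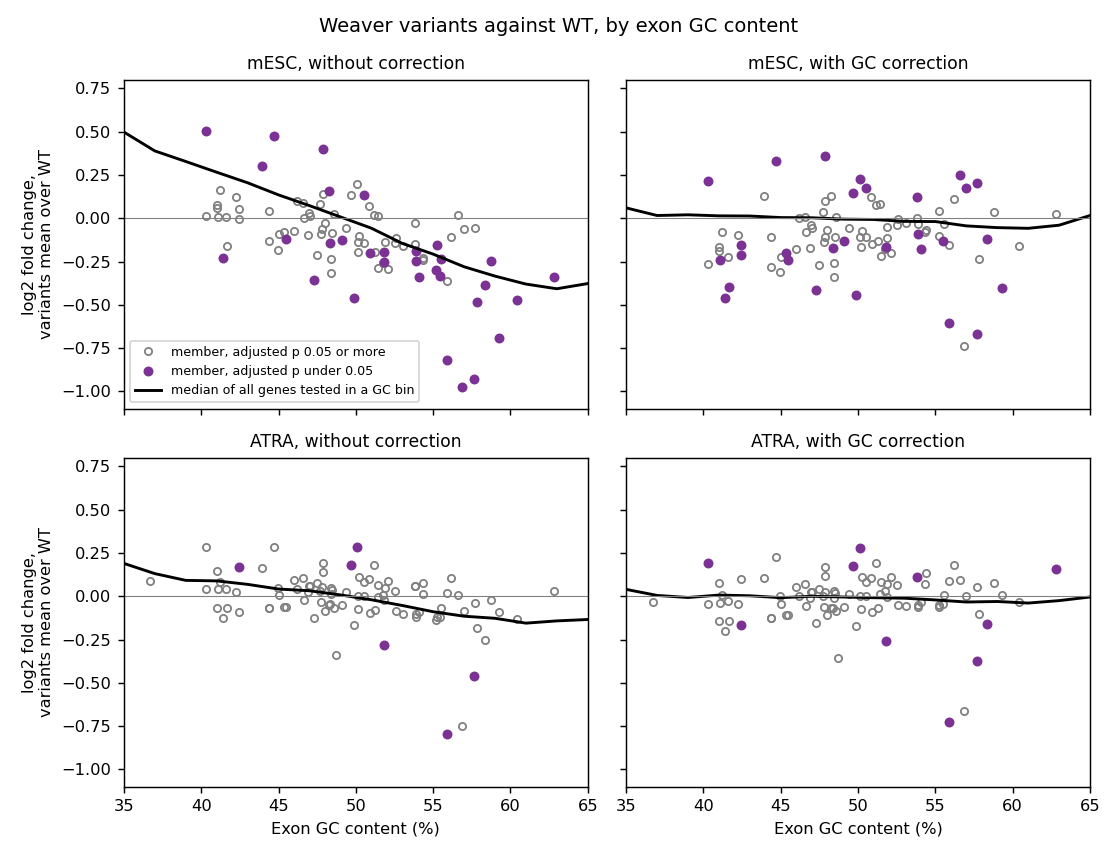
Log2 fold change of the mean of 4 Weaver variants over WT (y axis) against exon GC content in percent (x axis), in mESC (top) and ATRA (bottom), without (left) and with (right) GC correction; circles are the genes of the set, filled where the adjusted p is under 0.05, and the black line is the median of all genes tested in bins of GC content. The genes follow the sloping median of all genes in mESC without correction, while Cox6b2 and Cox7a1 lie well below it in all 4 panels.

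The 2 genes with the lowest adjusted p in that comparison encode tissue-restricted complex IV subunits. Cox6b2 (chromosome 7, 4751792 to 4753094, GRCm38) had 32.6, 29.7 and 40.6 CPM in WT, 35.9, 31.9 and 35.9 in parental and 27.1, 31.2 and 31.8 in het mESC. It had 12.7, 15.6 and 12.04 in A677T, 16.5, 16.5 and 14.8 in K563E, 20.8, 19.3 and 18.3 in R679C and 23.4, 20.1 and 24.5 in K634E. Every library of the 4 variants lay below every library of WT, parental and het, while the A733T libraries, given below, overlap those of K634E and R679C. The log2 difference from WT was -0.93 (SE 0.086, adjusted p = 3.46e-09), or -0.67 with the GC correction (adjusted p = 2.41e-10). Singly it was -1.30 in A677T, -1.07 in K563E, -0.78 in R679C and -0.56 in K634E, and it passed in each.

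Cox7a1 (chromosome 7, 30184144 to 30186078), the heart and skeletal muscle form of another complex IV subunit, had 5.32, 4.29 and 6.64 CPM in WT. It had 2.63, 2.94 and 2.71 in A677T, 2.97, 3.42 and 1.96 in K563E, 3.61, 3.15 and 2.61 in R679C and 3.53, 2.46 and 4.02 in K634E, and all of these lay below all WT libraries. The difference was -0.82 (SE 0.154, adjusted p = 0.000126), or -0.61 with the GC correction (adjusted p = 0.000595). Cox4i2, the lung form of the Cox4 subunit, stood at 0.709, 1.19 and 0.996 CPM in WT and from 0.193 to 0.79 in the variants, which overlap (-0.97, adjusted p = 0.0186), and it did not pass with the GC correction (adjusted p = 0.0805). Cox6b1 stood at -0.20 (adjusted p = 0.0401) and did not pass with the GC correction (adjusted p = 0.19). Cox7a2 did not pass (0.02, adjusted p = 0.867). Cox4i1 was at -0.03 (adjusted p = 0.723), and at 0.12 with the correction (adjusted p = 0.0165). Whether the restricted and common forms differ in their response was not tested.

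**Figure D5:**
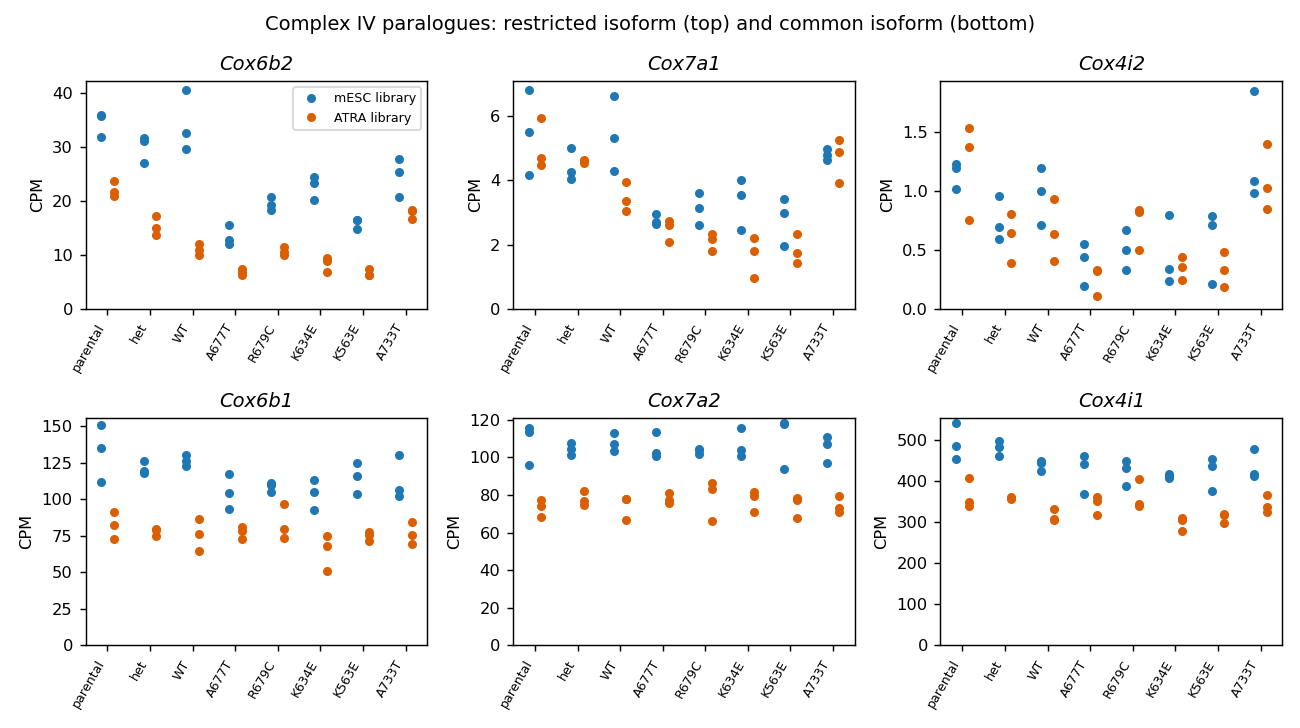
Level (y axes, CPM, from 0) of tissue-restricted complex IV subunits (top) and of common forms of the same subunits (bottom) in each library, by line (x axes) and state (blue mESC, orange ATRA). Cox6b2 and Cox7a1 are lower in the 4 Weaver variants than in WT in mESC, and the common forms overlap between most lines.

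Other falls were smaller. In complex III, 4 of 9 genes fell. Uqcrq, a small subunit of the complex, had 89.9, 75.8 and 88.4 CPM in WT and at most 76.2 in any of the 12 variant libraries (-0.46, SE 0.094, adjusted p = 0.000382; -0.44 with the GC correction). Uqcr11 had 67.7, 45.3 and 67.2 CPM in WT and from 20.9 to 52.5 in the variants, which overlap (-0.69, adjusted p = 0.00522). In ATP synthase, Atp5g1 fell by 0.36 on the log2 scale (adjusted p = 0.0036), and in complex I Ndufv1 stood at -0.33 (adjusted p = 0.00372), both with a call under the GC correction. The means of these genes were lower in het and parental mESC than in WT. In WT, het and parental they were 84.7, 68.2 and 66.9 CPM for Uqcrq and 60.1, 46.6 and 44 for Uqcr11. For Atp5g1 they were 187, 143 and 149, and for Ndufv1 169.5, 158 and 151. The part of the higher WT level in these falls was not tested. Cyc1 and Cox6a1 passed at -0.24 and -0.34 without the correction and stood at 0.04 and 0.03 with it. Cox6a1 has the highest exon GC content of the set (62.8%).

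The 6 genes that rose included the assembly factors Ndufaf4 and Ndufaf2. Ndufaf4 had 27.4, 25.3 and 26.3 CPM in WT. It had 36.6, 29.3 and 52.8 in A677T, 34.2, 36.0 and 35.3 in R679C, 31.3, 35.4 and 39.2 in K634E and 33.4, 33.7 and 41.0 in K563E. All variant libraries stood above all WT libraries (0.51, SE 0.120, adjusted p = 0.00161; 0.22 with the GC correction, adjusted p = 0.0106). Its exon GC content, 40.3%, is among the lower values of the set. Ndufaf2 rose by 0.40 (adjusted p = 0.00655; 0.36 with the correction). Ndufb2 rose by 0.48, but its annotated span overlaps that of another gene on the same strand, so its count is uncertain. Ndufab1 (0.30), Ndufb5 (0.16) and Atp5c1 (0.14) rose as well, and the first 2 of these did not pass with the GC correction.

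Among single variants, A677T had 22 lower and 5 higher genes (all genes 22.2% and 22.4%), and K634E 18 and 3 (14.8% and 14.5%). K563E had 8 and 6 (17.8% and 16.8%), and R679C 5 and 2 (12.6% and 11.1%). With the GC correction the counts were 18 and 8 in A677T (19.2% and 18.2%), 11 and 0 in K634E (9.32% and 8.83%), 6 and 6 in K563E (17.3% and 16.1%) and 6 and 1 in R679C (11.6% and 11.1%). The R679C, K634E and K563E counts each changed by over 1.5 times when 1 library was left out, down to 2, 5 and 5 called genes. The libraries concerned were WT replicate 3 for all of them, WT replicate 1 for K634E and K563E, R679C replicates 2 and 3, K634E replicate 2, and K563E replicates 1 and 3.

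In the mitochondrial genome's subunits the direction was the opposite. Of 11 tested, 7 rose and none fell in the Weaver variants in mESC, with a median of 0.52, but with the GC correction none passed and the median was 0.10. Mitochondrial genes took 1.26% to 2.77% of counts in the 48 libraries. Glycolysis genes fell in 12 of 20 and rose in 1, with a median of -0.26, or -0.09 with the GC correction. Mitochondrial ribosome genes had 9 lower and 19 higher of 77 (8 and 13 with the GC correction), and the tricarboxylic acid cycle 4 lower and 3 higher of 14 (5 and 1). Over all genes 22.9% fell and 21.4% rose, and the higher ribosome and lower cycle counts are near those shares.

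In A733T mESC, 13 genes fell and none rose against WT, with a median of -0.16. Over all genes 8.64% fell and 10.7% rose. With the GC correction 13 fell and none rose (all genes 11.8% and 13.4%), 10 of them the same genes. The count was 4 to 6 without WT replicate 1 (5) or 3 (6) or without A733T replicate 1 (4) or 3 (5), and 33 with no filter on low counts. The shares of all genes called in those fits are not given, so these counts cannot be read as particular to the set. Uqcrq had 49.3, 67.9 and 57.7 CPM in A733T, below the WT libraries (-0.51, SE 0.123, adjusted p = 0.00458). Sdhd had 98.2, 111 and 97.6 CPM against 139, 137 and 141 (-0.42, SE 0.095, adjusted p = 0.003), and Ndufaf5 10.4, 11.8 and 10.8 against 17.6, 13.3 and 14.2 (-0.42, SE 0.110, adjusted p = 0.00754). Neither overlapped, and both passed with the GC correction. Cycs had 98.9, 106 and 104 CPM, also below all WT libraries (-0.34, adjusted p = 0.0407). It did not pass with the correction (adjusted p = 0.0763) or in 5 of the 6 fits that leave out 1 library, all but that without WT replicate 2. In het and parental mESC the means were 99.8 and 92.9 CPM for Cycs and 68.2 and 66.9 for Uqcrq. For Sdhd they were 120 and 125, and for Ndufaf5 14.9 and 14.6. Cox6b2 had 20.7, 27.7 and 25.4 CPM (-0.45, SE 0.113, adjusted p = 0.00578), a call lost without WT replicate 3 (adjusted p = 0.0607) or A733T replicate 1 (0.0633).

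After ATRA, in the mean of the Weaver variants 3 genes fell and 3 rose of 92, with a median of 0.01, while 12.1% of all 17030 genes fell and 8.43% rose. With the GC correction 5 fell and 5 rose (14.3% and 11.7% of all genes). The genes that fell were Cox7a1, Cox6b2 and Ndufv3. Cox7a1 had 3.06, 3.36 and 3.94 CPM in WT and from 0.952 to 2.74 in the 12 variant libraries, all below WT (-0.79, SE 0.159, adjusted p = 0.000559; -0.72 with the GC correction). Cox6b2 had 10.9, 11.99 and 10.03 CPM in WT. It had 7.41, 6.29 and 6.85 in A677T, 6.17, 6.22 and 7.37 in K563E, 9.38, 8.82 and 6.78 in K634E and 10.6, 11.5 and 9.96 in R679C (mean -0.46, SE 0.090, adjusted p = 0.000425). Singly it passed in A677T (-0.69), K563E (-0.74) and K634E (-0.39, no call with the GC correction or without WT replicate 1 or 2 or K634E replicate 3), and in R679C, whose libraries overlap WT, it stood at -0.03 (adjusted p = 0.916). Ndufa5 (0.28), Cox7a2l (0.18) and Ndufs4 (0.17) rose. Ndufa5 and Cox7a2l had no call without WT replicate 1, nor did Ndufa5 without WT replicate 2 or Cox7a2l without WT replicate 3. In all, 2 genes passed without WT replicate 1 and 3 without WT replicate 2.

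By line in ATRA, 3 genes fell and 2 rose in A677T (all genes 11.1% and 8.33%), 1 and 1 in R679C (5.45% and 4.87%), 7 and 0 in K634E (7.65% and 7.38%), and 3 and 1 in K563E (11.9% and 8.53%). In A733T 3 fell and 1 rose (7.33% and 10.4%). With the GC correction R679C had 10 higher genes and 1 lower, against 8.1% and 8.45% of all genes. The 1 gene that rose in A733T was Cox6b2, at 16.6, 18.3 and 18.2 CPM, above every WT library (0.69, SE 0.111, adjusted p = 8e-05; 0.66 with the GC correction). The 3 that fell were Sdhd (-0.27), Uqcrfs1 (-0.20), the Rieske protein of complex III, and Ndufs1 (-0.17). These counts rest on single libraries: leaving out 1 gave 1 to 6 in A677T, 0 to 4 in R679C, 1 to 11 in K634E, 2 to 7 in K563E and 1 to 3 in A733T. The counts moved by over 1.5 times without WT replicate 1 or 2 in A677T, K634E and A733T, WT replicate 1 in R679C, WT replicate 2 or 3 in K563E and WT replicate 3 in A733T. The same held without A677T replicate 1 or 3, any R679C library, K634E replicate 2 or 3, or A733T replicate 1 or 3. In K634E the 7 were Cox7a1 (-1.04), Cox6b2 (-0.39), Atp5d (-0.39), Ndufv3 (-0.38), Ndufb10 (-0.33), Uqcrq (-0.33) and Atp5g1 (-0.29).

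Whether the variants' difference from WT changed with ATRA was tested as an interaction over all 48 libraries. It passed for 1 gene of 92, Cox6b2, while 4.54% of all genes passed higher and 2.53% lower. Its difference from WT was smaller in ATRA than in mESC by 0.50 on the log2 scale (SE 0.133, adjusted p = 0.0132; 0.33 with the GC correction, adjusted p = 0.0452). The call was lost without WT replicate 3 of mESC (0.32, adjusted p = 0.217) or of ATRA (0.44, adjusted p = 0.0805).

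The controls differed in few of the genes. In mESC, 4 rose and 1 fell in WT against het, with 5.22% and 6.84% of all genes. Atp5g1 (0.38), Ndufb10 (0.35), Atp5j (0.27) and Cycs (0.41) were higher in WT, and Cox7a2l lower (-0.29, SE 0.077, adjusted p = 0.0124). No gene passed without WT replicate 1, 1 passed without het replicate 2 or 3, and 3 without WT replicate 3. In ATRA 1 rose and 4 fell (7.64% and 8.74%). Cycs was higher in WT again (0.39, SE 0.102, adjusted p = 0.0098), with 121, 107 and 134 CPM against 102, 90.8 and 84.5 in het. Its call was lost with the GC correction in both states (adjusted p = 0.106 and 0.138), as was that of Atp5g1 in mESC (adjusted p = 0.0777). Cox7a2l, a supercomplex assembly factor, was lower in WT again, with 76.7, 91.0 and 83.2 CPM against 99.7, 108 and 104 (-0.31, SE 0.070, adjusted p = 0.00283). It kept its call with the GC correction in both states. Cox6b2 (-0.46), Ndufaf3 (-0.39) and Ndufa6 (-0.29) were lower too. The ATRA count was 2 or 3 without any het library or without WT replicate 1 or 3. The Cox7a2l call of mESC was lost without het replicate 1 or WT replicate 1, and the Cycs call of ATRA without replicate 3 of either line.

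Between het and parental cells no gene passed in mESC (edgeR, with 3 at an unadjusted p under 0.05 and none by DESeq2), where 2.26% of all genes fell and 1.17% rose. In ATRA 1 fell and none rose (4.05% and 2.2%). It was Cox6b2, at 13.6, 14.9 and 17.2 CPM in het and 21.6, 23.6 and 20.9 in parental cells, which do not overlap (-0.54, SE 0.106, adjusted p = 0.00112). Across the 8 lines in ATRA its level ran from 6.17 CPM in K563E to 23.6 in parental cells, in the order parental, A733T, het, WT, R679C, K634E, A677T and K563E by mean. Libraries of neighbours in that order overlapped for A733T and het, for WT and R679C, and for K634E, A677T and K563E.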

How the data were processed

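Polyadenylated RNA was sequenced with random-hexamer priming and dTTP in the second strand, per the labels' protocols. The authors deposited raw counts per gene, and the submitters' processing notes name featureCounts 1.6.4, STAR 2.7.3a, cutadapt 3.2 and the build mm10, with no roles; strandedness of counting is not given in the sources used here. Columns were matched to samples by name, and 6 columns that match no label were not analysed here. Genes were matched to GENCODE M21. Counts were fitted with edgeR 4.0.16 (filterByExpr, TMM, robust quasi-likelihood test, Benjamini-Hochberg adjustment over all genes tested, threshold 0.05), with 24 libraries per state or all 48. Alternatives were relative log expression scaling, no filter, DESeq2 1.42.0, removal of each library's GC or GC and length trend (lowess, span 0.3, genes of at least 4 CPM), a replicate block, and leaving out each library. The NRF1 letters searched were shortened by 1 after a first search. The fits were tested on simulated data. Genes were named by a rule: past the threshold, at least 1 CPM in a compared group, groups that do not overlap (for the variant mean, the same sign in every variant) and the largest changes, up to 6 per direction in the variant means and ATRA against mESC in WT, 4 in A733T and the controls and 2 elsewhere. To these came a fixed carrier or catalytic subunit per complex and the sets of paralogues. The other genes named, such as Sdhb, Sdhc, Sdhd, Ndufs8, Ndufaf8, Uqcrc2 and Cox7c after ATRA, were chosen after their values were seen. The members, lists and tests were chosen with earlier results of these data known. Copies of a gene, and genes that overlap Cox4i1, Ndufb2, Ndufb8 and Ndufb9 on the same strand, make their counts uncertain. Results for 1 gene are not reported here.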

Additional observations from a re-analysis of the deposited data

Results flagged for a closer look

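The difference of the Weaver variants from WT changed between the states for Cox6b2 by 0.50 on the log2 scale (ATRA minus mESC, interaction test). All genes of the set and all line comparisons within a state were searched for libraries that separate in opposite directions in mESC and ATRA. In 3 cases every library of a variant lay on one side of WT in mESC and on the other in ATRA. The difference between the states was not tested. Such cases were not counted over all genes, so these cannot be read as particular to the set. For Cox6b2 in A733T the difference from WT was -0.45 in mESC and 0.69 in ATRA, which is 1.14 apart. For Atp5g1 in R679C it was -0.24 and 0.11, 0.36 apart, with 166, 148 and 149 CPM against 188, 179 and 192.5 in mESC and 127.5, 134 and 128 against 119, 125 and 117 in ATRA. For Ndufb10 in R679C it was -0.17 and 0.15, 0.32 apart. In ATRA neither R679C difference passed (edgeR, adjusted p = 0.465 for Atp5g1 and 0.411 for Ndufb10).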

How the results depend on the processing

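Cyc1 changed sign in the mESC variant mean, from lower to a small positive difference. It did so with the GC correction (0.035), the GC and length correction (0.032) and the replicate block with GC correction (0.035), and in K634E with the same settings (0.025, 0.036 and 0.025). Cox6a1 did so in the mean with the GC correction (0.025) and the block with GC correction (0.027), and in K634E with all 3 (0.029, 0.018 and 0.032). Differences this small are not read as a higher level. Exon GC content is 58.8% in Cyc1 and 62.8% in Cox6a1. Without correction, the median of all genes in the mESC variant mean was -0.33 in the GC bin centred on 59% and -0.41 in that on 63%. The part of the GC trend in these changes of sign was not tested.

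The counts of called genes in this section join both directions. The shares of all genes called under the same settings are not given beside them, nor beside the counts above from fits that leave out 1 library or use no filter. A moved count therefore cannot be read as particular to the set. With no filter on low counts, called genes numbered 15 in R679C, 33 in A733T and 9 in WT against het in mESC, 10 in R679C, 15 in K634E and 11 in K563E in ATRA, and 7 in the interaction. DESeq2 gave 5 in ATRA R679C and 2 in ATRA het against parental. The GC correction gave 11 in mESC K634E and 1 in mESC het against parental, and in ATRA 10 in the mean, 10 in A677T, 11 in R679C, 7 in K563E, 9 in A733T and 2 in het against parental, with 2 in the interaction. The GC and length correction gave 1 in mESC het against parental, and in ATRA 10 in the mean, 11 in A677T, 9 in R679C, 12 in A733T, 11 in WT against het and 2 in het against parental, with 2 in the interaction. Relative log expression scaling moved no count by over 1.5 times.

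The replicate block gave, in ATRA, 11 in the mean, 10 in A677T, 11 in R679C, 16 in K634E, 9 in K563E, 9 in WT against het and 2 in het against parental, with 2 in the interaction. The replicate block with GC correction gave 11 in K634E, 8 in WT against het and 2 in het against parental in mESC, and 14 in the mean, 13 in A677T, 12 in R679C, 13 in K563E, 12 in A733T, 10 in WT against het and 3 in het against parental in ATRA, with 2 in the interaction. The labels link same-numbered libraries by nothing but the number. Deviations of same-numbered libraries correlated at a median of 0.09 in mESC (-0.5 to 0.72, 84 pairs), against -0.05 for libraries of other numbers. In ATRA the median was 0.19 (-0.34 to 0.69), against -0.09. Of 24 libraries, 15 in mESC and 18 in ATRA correlated best with their own number. The p-values of the fits without the block do not account for the number.

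Leaving out 1 library gave, in mESC, 19 to 35 called genes in the mean, 22 to 38 in A677T, 2 to 8 in R679C, 5 to 23 in K634E, 4 to 19 in A733T, 5 to 15 in K563E, 0 to 6 in WT against het and 0 in het against parental. In ATRA it gave 2 to 7 in the mean, 1 to 6 in A677T, 0 to 4 in R679C, 1 to 11 in K634E, 1 to 3 in A733T, 2 to 7 in K563E, 2 to 5 in WT against het and 1 in het against parental. For ATRA against mESC it gave 46 to 66 in parental, 50 to 61 in het, 65 to 75 in WT, 44 to 59 in A677T, 35 to 53 in R679C, 55 to 67 in K634E, 44 to 57 in A733T and 52 to 68 in K563E, and for the interaction 0 to 2. Planned comparisons of a further variant were not run, because its columns match no label. Genes near 1 CPM or below rest on few counts, which limits what depth can show.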
